A study of Mus musculus with 2 samples.

Results

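Epithelial cells of the E12.0 mouse mandible that contained at least 1 transcript molecule of Foxa1 or Foxa2 were examined. A transcript molecule was counted as a unique molecular identifier, or UMI. There were 494 such cells among the 11355 cells within the quality limits, which is 4.35% (3.98 to 4.74, exact 95% binomial interval), and cells without such a UMI are called Foxa-negative. These values of Foxa1 and Foxa2 chose the cells, so the levels of the 2 genes are given below as a description only.

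The data came from 2 single cell libraries. At E12.0, mandibular arches of 6 K14Cre;R26mT/mG embryos of 1 litter were pooled, the epithelium was peeled off, and GFP+ cells were sorted. In these embryos a keratin 14 promoter drives Cre, which switches the reporter from tdTomato to GFP, so epithelial cells in which that promoter had not been active would be missing. At E9.5, whole mandibular arches of 8 embryos of the same genotype label were pooled and sequenced unsorted, with mesenchyme and endoderm included. Neither group carried a treatment. The E12.0 library held 11663 barcodes with 78911671 UMIs, and the kept cells had a median of 6349 UMIs and 2776 genes. Because each stage was 1 library, cells are not replicates and no test between groups could be made. A level is the number of a gene's UMIs in all cells of a group, per 1000000 UMIs of these cells (CPM), and brackets hold exact 95% intervals that cover counting error only.

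Foxa1 and Foxa2 encode forkhead transcription factors that can bind closed chromatin and are best known from the endoderm and its derivatives. Shh is a secreted Hedgehog ligand, and in tongue epithelium it marks the taste placodes, small thickenings that become taste papillae. Notum is a secreted enzyme that inactivates WNT ligands.

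Foxa1 (ENSMUSG00000035451) lies on chromosome 12 from 57540628 to 57546916 and Foxa2 (ENSMUSG00000037025) on chromosome 2 from 148042877 to 148046969, both on the minus strand of GRCm38. The stretches upstream of their RefSeq start sites in GRCm38.p6 are shown because Foxa proteins are forkhead factors, and capitals mark the forkhead motif TGTTTAC on either strand. The Foxa1 stretch, chr12:57546162-57546361, lies in an intron of the longer transcript in the GENCODE annotation, and the Foxa2 stretch is chr2:148047020-148047219.
Foxa1 upstream: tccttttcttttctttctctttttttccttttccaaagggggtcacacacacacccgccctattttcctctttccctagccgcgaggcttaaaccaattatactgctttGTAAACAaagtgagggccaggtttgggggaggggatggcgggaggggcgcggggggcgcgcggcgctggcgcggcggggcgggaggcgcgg
Foxa2 upstream: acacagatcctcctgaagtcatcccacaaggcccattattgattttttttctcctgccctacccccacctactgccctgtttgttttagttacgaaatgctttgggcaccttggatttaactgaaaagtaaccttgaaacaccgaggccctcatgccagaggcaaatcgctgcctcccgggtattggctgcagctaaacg
Each stretch holds 200 bases, and the 50 bases nearest the start are not shown. The Foxa1 stretch held 1 match, which begins 141 bases before the start, and the Foxa2 stretch held none. Over 250 bases before the start, 956 of 27025 genes (3.54%) held a match. Of the 30 genes that led the Foxa2-positive cells described below, 21 had a sequence and 0 of these held a match, and of the 30 that led all Foxa-positive cells, 1 of 20 did, the imprinted gene Dlk1. A match is a string of letters and not a binding site.

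Most Foxa-positive cells were chosen on a single molecule. The sum of Foxa1 and Foxa2 UMIs was 1 in 381 cells, 2 in 80 cells and 3 or more in 33 cells. Foxa1 alone was found in 414 cells, Foxa2 alone in 48, and both in 32. Foxa1 was at 136 CPM (125 to 148) and Foxa2 at 30.0 CPM (24.9 to 35.8) over all Foxa-positive cells. Of the other fixed tongue markers, Shh had UMIs in 52 Foxa-positive cells, 1 UMI in 28 of them and at least 2 in 24, and a UMI of Notum was found in 4.45% of the Foxa-positive cells. The 442 cells without Shh were thus the large majority.

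The Foxa-positive cells were deeper than the other cells, with a median of 7534 against 6316 UMIs, and Scrublet, which scores each cell against simulated cell pairs, called 13.2% of them doublets against 5.49% of the others. The part that depth and doublets had in the results was not tested, but shares of cells are also given after every cell was thinned to 4100 UMIs. This left out 28 Foxa-positive cells (5.67%) and 996 others (9.17%). Levels without the called doublets gave the same direction for every gene named below that met the size criterion in the comparison with all other cells.

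Cells with a Foxa sum of 1 already differed from cells with none. The latter are all 10861 other cells, from every region, so this is not a contrast of similar cells on the 2 sides of the limit. Values within a cluster are given below. Pax9 was at 72.7 CPM in cells with a Foxa sum of 1 and at 10.1 CPM in cells with none. Rtl3, which the files list under its older symbol Zcchc5, was at 37.7 and 6.82 CPM. Cells with a larger Foxa sum differed from these in level and also in sex. Rtl3, a retrotransposon-derived Gag-like gene, was at 72.6 CPM with a sum of 2 and at 191 CPM with 3 or more, and Lgr5, a receptor for R-spondins, was at 17.0, 34.9 and 64.7 CPM in the same order. Barx2, a homeobox gene, had the opposite order, at 318, 246 and 145 CPM. Of the cells that sex-linked transcripts assign to 1 sex, 57.2%, 68.9% and 92.6% were male in this order. The part that sex, or the embryo of origin, had in these levels was not tested.

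Clustering of the E12.0 cells, with Foxa1, Foxa2, Shh and Notum left out of the genes used, placed the Foxa-positive cells in several regions. Of 14 clusters, 5 held 449 of them. The highest share was in a cluster led by Rtl3 and Amot, a YAP-binding protein gene, where 130 of 296 cells (43.9%, 38.2 to 49.8) were Foxa-positive. The highest share changed with the scores regressed out and with the Foxa UMIs required, as given at the end. All 4 tongue markers were raised in the Rtl3/Amot cluster, of which Foxa1 and Foxa2 had chosen the cells. The 4 genes were left out of the ranking of leading genes, which held 1 posterior-medial marker, and the cluster is called by its leading genes. In the salivary gland-like cluster, led by Fam150b and with Col9a1 among its leading genes, 126 of 391 cells (32.2%, 27.6 to 37.1) were Foxa-positive. In the posterior-lateral-like cluster, led by Pax9 and Fndc1, the number was 71 of 395 (18.0%, 14.3 to 22.1). The posterior-medial-like cluster, led by Barx1 and Dmrt2, held 91 among 1396 cells (6.52%, 5.28 to 7.94), and the periderm-like cluster, led by Zfp750 and Pkp1, 31 among 460 (6.74%, 4.62 to 9.43). The other 9 clusters held 45 Foxa-positive cells among 8417 (0.535%), with shares from 0.102% to 1.16%. The part that free RNA in droplets had in these shares was not tested. Since 364 of the 494 cells lay outside the cluster in which all 4 tongue markers were raised, they are called Foxa-positive here and not tongue epithelium.

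**Figure D1:**
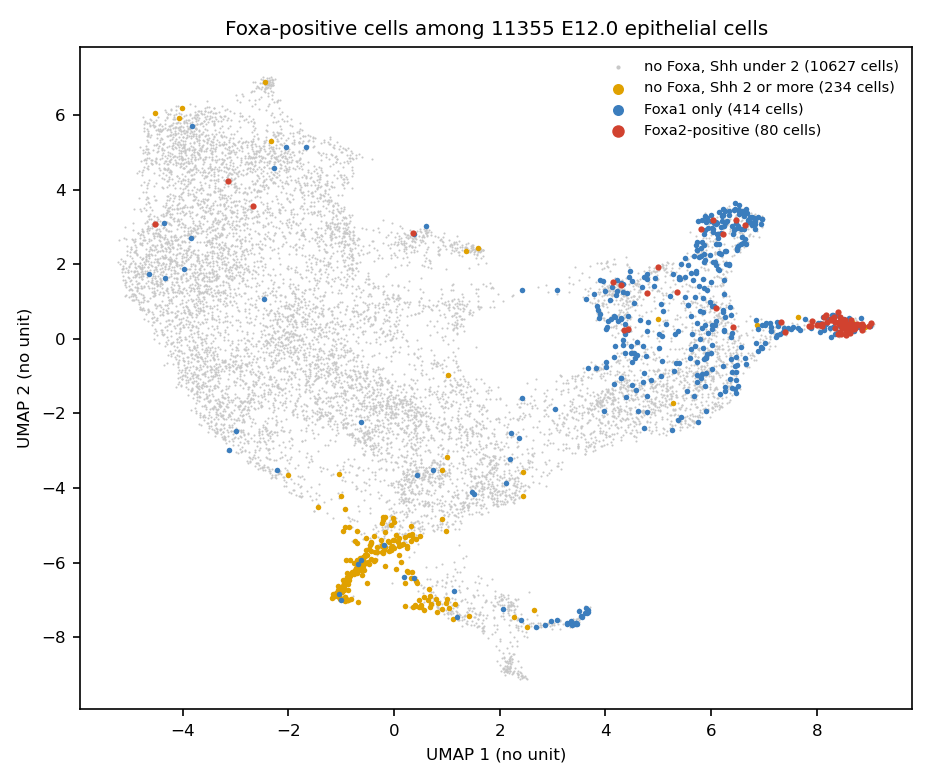
The 11355 E12.0 epithelial cells on the 2 UMAP axes (arbitrary units), with the 414 cells with Foxa1 only in blue, the 80 Foxa2-positive cells in red, the 234 Foxa-negative cells with at least 2 Shh UMIs in yellow and all others in grey. The Foxa1-only cells spread over several areas, while most Foxa2-positive cells lie in 1 area.

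**Figure D2:**
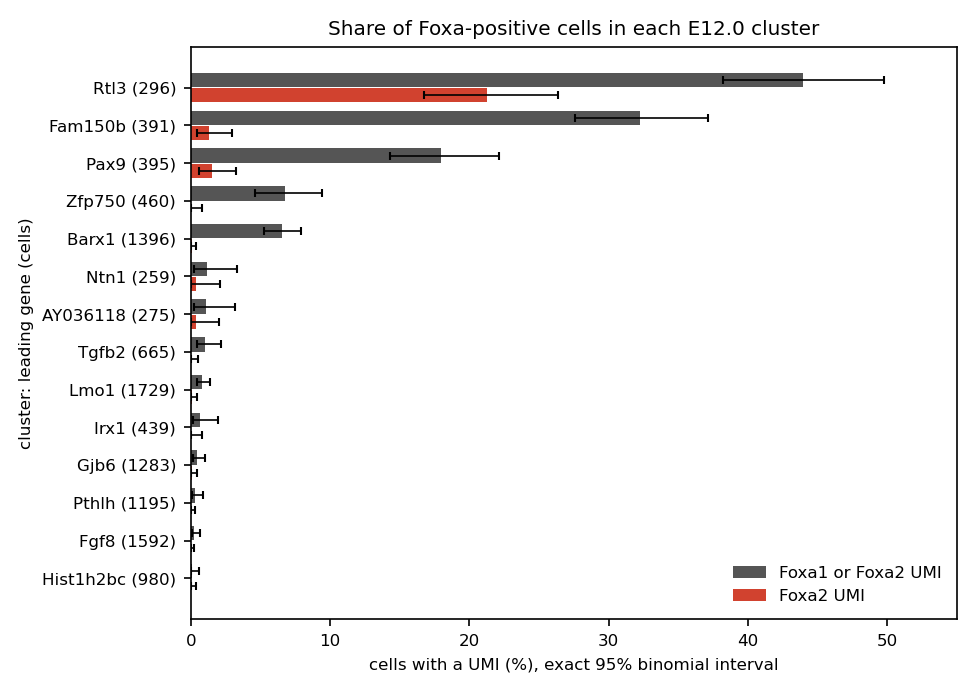
Percent of the cells of each E12.0 cluster, named by its leading gene and its number of cells, with a UMI of Foxa1 or Foxa2 (grey bars) and of Foxa2 (red bars), with exact 95% binomial intervals as lines. The Rtl3/Amot cluster (Rtl3) reaches 43.9%, the salivary gland-like cluster (Fam150b) 32.2%, and 9 clusters stay at or under 1.16%.

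Foxa2 was far more restricted than Foxa1. The Rtl3/Amot cluster held 63 of the 80 Foxa2-positive cells (78.8%) and 29 of the 32 cells with both genes, but 67 of the 414 cells with Foxa1 only (16.2%). The salivary gland-like, posterior-lateral-like, posterior-medial-like and periderm-like clusters held 5, 6, 1 and 0 Foxa2-positive cells, respectively. Among Foxa2-positive cells, 40.0% (29.2 to 51.6) also had a Foxa1 UMI, against 3.67% (3.33 to 4.04) of cells without Foxa2. In thinned cells, the 2 genes were found together in 16 cells where the product of their shares gives 1.19, and inside the Rtl3/Amot cluster, without thinning, in 29 cells where it gives 20.4. In thinned female cells 0 were found where the product gives 0.0656. These are the values that chose the cells, so they describe them and no test is read from them.

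The first comparison set the 494 Foxa-positive cells against the 10861 other kept cells, to ask which genes accompany Foxa expression. The salivary gland markers Col9a1, Sox9 and Barx2 and the posterior-lateral markers Pax9 and Foxc1 were higher in the Foxa-positive cells, as were the FGF targets Etv4 and Dusp6, while the anterior markers Cxcl14, Lmo1 and Wnt9b and the WNT ligand gene Wnt4 were lower. A gene was counted as higher or lower when the ratio of CPM, with 5 CPM added to both sides, was at least 1.5 and at least 10% of the higher group's cells held a UMI. Of 8046 genes tested, 210 were higher (2.61%) and 170 lower (2.11%), with Foxa1 and Foxa2 left out. The counting interval of the ratio lay past 1 for every one of these genes. The gene lists below were chosen with results of these data known, so their counts are a description. In addition, a gene that reached 10% of cells in 1 of the 2 groups only entered the comparison through that group, so its direction was largely set beforehand. This holds for the list counts of every comparison below, which are printed as counts only. Of the genes tested, 644 reached the limit in the Foxa-positive cells only and 101 in the other cells only.

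Of the 7 salivary gland markers 5, and all 3 posterior-lateral markers tested, reached 10% of cells in the Foxa-positive cells only, so nothing is read from their counts and the levels are given. Col9a1, a cartilage-type collagen gene that also marks the early gland, was at 31.7 CPM (26.4 to 37.7) in Foxa-positive and at 2.88 CPM in the other cells, an 11-fold difference (8.76 to 13.8). Sox9, which gland and other epithelial progenitors express, was at 189 against 47.1 CPM, and Barx2 at 291 against 84.8 CPM. Pax9 (ENSMUSG00000001497, chromosome 12 from 56691767 to 56712822), a paired-box gene required in pharyngeal pouches, palate and taste papillae, was 6.53-fold higher (5.66 to 7.52), with a UMI in 35.0% against 5.08% of cells, or 19.5% and 3.54% after thinning. Foxc1, another forkhead gene, was 5.70-fold higher (5.00 to 6.48). Of the 4 posterior-medial markers tested 2 were higher, with 3 of the 4 reaching the limit in the Foxa-positive cells only, and the leading gene of the whole comparison was 1 of them, Rtl3 (ENSMUSG00000047686, chromosome X from 106837082 to 106840644), at 56.2 CPM (49.1 to 64.0) against 6.82 CPM.

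Other genes among the 30 with the largest ratios are given as examples, picked from no list. Dlk1, an imprinted gene which encodes a Notch ligand-like protein, was at 136 CPM (125 to 148) against 26.8 CPM, and Peg10, a retrotransposon-derived gene, was 4.84-fold higher (4.16 to 5.61). Itga9, an integrin gene, was at 47.3 CPM (40.8 to 54.5) against 7.19 CPM, and Sfrp1, which encodes a secreted WNT inhibitor, at 77.7 CPM (69.4 to 86.8) against 17.8 CPM. Fam150b, the ALK ligand gene that led the salivary gland-like cluster, was 7.16-fold higher (5.90 to 8.65), and Amot was at 476 CPM (455 to 498) against 117 CPM, with a UMI in 81.8% of Foxa-positive cells. Among the lowest ratios were the LIM-only gene Lmo1, at 34.4 against 142 CPM, the homeobox gene Otx1, at 16.1 against 62.1 CPM, and Gas1, a Hedgehog co-receptor gene, at 30.0 CPM (24.9 to 35.8) against 111 CPM.

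Of the 12 FGF pathway genes tested, 6 were higher and 1 was lower, and 2 reached the limit in the Foxa-positive cells only and 1 in the other cells only. The higher ones were the ETS factors Etv4 and Etv5, the feedback inhibitors Dusp6, Spry1 and Spry2, and the receptor gene Fgfr1. Etv4 was at 51.5 CPM (44.7 to 59.0) against 14.9 CPM. Dusp6, a phosphatase that acts on ERK, was 2.80-fold higher (2.52 to 3.11). In the retinoic acid list, 4 of 7 genes were higher and 1 was lower, and again 2 and 1 reached the limit in a single group. The retinaldehyde reductase gene Dhrs3 was 2.67-fold higher (2.28 to 3.12) and the receptor gene Rarb 2.08-fold (1.70 to 2.52), while the binding protein gene Crabp1 was lower, at 11.9 against 55.4 CPM. Crabp2, another binding protein gene, was higher, at 82.9 CPM (74.3 to 92.3) against 38.3 CPM. In the 32 cells with UMIs of both Foxa genes, the ratios of Dhrs3, Rarb and Crabp2 were reversed, as given at the end.

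All 6 WNT ligand genes tested were lower, of which 1 reached the limit in the other cells only. Wnt4, the most abundant, was at 320 CPM (303 to 338) against 648 CPM, and Wnt9b, a ligand gene of the facial ectoderm, was at 20.3 against 75.4 CPM. Anterior markers were lower in 12 of 14 cases and dental markers in 7 of 9, but 3 and 4 of them, respectively, reached the limit in the other cells only. Cxcl14, a chemokine gene of the anterior epithelium, was at 187 CPM (174 to 201) against 900 CPM, with a UMI in 23.3% against 59.7% of cells, or 17.6% and 56.2% after thinning. Msx1, a homeobox gene and BMP target, was at 35.4 against 152 CPM, and 6 of 13 BMP pathway genes were lower and 0 higher. The iroquois gene Irx3 was at 13.1 against 64.9 CPM.

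Keratins divided evenly. Krt8, Krt18, Krt15 and Krt19 were higher, with Krt8, a keratin of simple epithelia, at 123 CPM (113 to 135) against 44.3 CPM. The ratio of Krt19 was reversed in the 32 cells with UMIs of both Foxa genes. Krt5, Krt14, Krt17 and Krt7 were lower, with Krt5, a keratin of basal stratified epithelium, at 186 CPM (173 to 200) against 518 CPM. Krt14, whose promoter marked the cells for sorting, was at 257 against 703 CPM. Epcam, the epithelial adhesion gene, was at 635 against 415 CPM, and 5 of 19 junction and adhesion genes were higher and 2 lower. Of 26 cell cycle genes, 1 was higher and 1 lower, against 2.61% and 2.11% of all genes tested, so nothing is read from these counts.

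Taste placode genes were mixed over all Foxa-positive cells, with 4 of 18 higher and 4 lower, and among 13 Hedgehog pathway genes none was higher and 2 were lower. Shh itself was at 29.5 CPM (24.4 to 35.3) against 19.1 CPM, a ratio that missed the size criterion, and Ptch1, the Hedgehog receptor and target gene, was at 119 against 116 CPM. Of the 15 tongue and foregut transcription factor genes tested, 5 were higher and 2 lower. WNT inhibitors and feedback genes were higher in 2 and lower in 2 of 10 cases, WNT receptor and transducer genes in 2 and 3 of 17, and Notch pathway genes in 2 and 0 of 9. The initiation knot genes, 7 of which could be tested, were lower in 4 cases and higher in 0, and neither the 4 periderm genes nor the 1 tongue marker outside the rule that could be tested met the criterion.

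Markers of other cells were low. Blood and immune genes summed to 2.48 CPM in Foxa-positive and 2.29 CPM in other cells, endothelial genes to 1.49 and 4.38 CPM, and mesenchymal genes to 123 and 123 CPM, most of it Fn1. The 8 thyroid and pouch endoderm genes summed to 4.21 CPM in Foxa-positive and 2.63 CPM in other cells. The most abundant of them in Foxa-positive cells was Pax1, at 2.23 CPM. Of the 8, Nkx2-1, Pax8, Hhex, Sox17 and Gcm2 had 0 UMIs in the Foxa-positive cells. This allows up to 0.913 CPM in each case at a total of 4039009 UMIs. Sox10, known from neural crest and also from gland epithelium, was at 8.91 CPM against 0.974 CPM. Heat shock and immediate early genes were higher in 3 of 10 cases, with Hspa1a at 22.0 against 4.10 CPM.

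The 80 Foxa2-positive cells were set against the cells with Foxa1 only. Lgr5, Axin2, Ptch1 and Gli1 were higher with Foxa2, and Barx2, Sox9 and Col9a1 were lower. This division was chosen after the data had been seen. The 2 groups were spread differently over the clusters, with 63 of the 80 and 67 of the 414 cells in the Rtl3/Amot cluster. In the salivary gland-like cluster lay 5 and 121 of them, respectively. The part that the cluster had in these differences was not tested. Of 8401 genes tested, 387 were higher (4.61%) and 649 lower (7.73%), and 280 (3.33%) and 408 (4.86%) remained when the counting interval also had to lie past 1. The limit of 10% of cells was reached by 417 genes in the Foxa2-positive cells only and by 539 only in those with Foxa1 alone. Lgr5 (ENSMUSG00000020140, chromosome 10 from 115450311 to 115587780), which is also a WNT target, was at 89.9 CPM (68.1 to 116) against 11.7 CPM, a 7.65-fold difference (5.02 to 11.8). It was found in 43.8% of Foxa2-positive cells and in 6.52% of the cells with Foxa1 only, or 26.6% and 4.91% after thinning. Axin2, a WNT feedback gene, was 3.70-fold higher (2.43 to 5.56) and Notum 5.11-fold (2.63 to 9.91).

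Ptch1 (ENSMUSG00000021466, chromosome 13 from 63508328 to 63573598) was at 301 CPM (260 to 347) in Foxa2-positive cells, 85.5 CPM in cells with Foxa1 only and 116 CPM in Foxa-negative cells. The Hedgehog target Gli1 was also higher with Foxa2, at 72.5 CPM (53.1 to 96.7) against 21.4 CPM, and Shh was at 77.2 CPM (57.1 to 102) against 20.6 CPM. The counts of Hedgehog genes with an interval past 1 were 4 higher and 2 lower of 13, and Gli2 was among the lower. Of 21 taste placode genes, 10 were higher and 3 lower by this measure, but 7 of the 21 reached the limit in the Foxa2-positive cells only, so nothing is read from this count. Among the higher was Isl1, a LIM homeobox gene, at 265 CPM (226 to 308) against 130 CPM. Outside that list, Tbx3, a T-box gene, was at 266 CPM (228 to 310) against 86.6 CPM and Klf4, a Krüppel-like factor gene, at 247 CPM (210 to 289) against 69.9 CPM. For WNT inhibitors and feedback genes the counts were 5 and 3 of 12, for WNT receptors and transducers 4 and 5 of 16, and for tongue and foregut transcription factors 4 and 4 of 15.

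Of the 7 salivary gland genes, 6 were lower in Foxa2-positive cells and 0 higher, and 3 reached the limit only in the cells with Foxa1 alone. Barx2 was at 110 CPM (86.0 to 139) against 325 CPM and Sox9 at 69.4 against 211 CPM. Col9a1 had 3 UMIs in the Foxa2-positive cells and was at 4.73 CPM (0.975 to 13.8) against 36.7 CPM. Among 6 posterior-medial genes, 4 reached the limit only in the cells with Foxa1 alone, so nothing is read from their count, and the 1 higher gene was Rtl3, at 143 CPM (115 to 176) against 39.9 CPM. FGF genes were lower in 5 and higher in 1 of 11 cases, retinoic acid genes in 4 and 1 of 8, Notch genes in 4 and 0 of 10 and periderm genes in 4 and 0 of 5, and in the last 3 lists 1, 2 and 2 genes reached the limit only in the cells with Foxa1 alone. Pax9 was among the genes that did not meet the criterion, at 52.0 CPM (35.8 to 73.1) against 68.4 CPM (59.9 to 77.8).

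**Figure D3:**
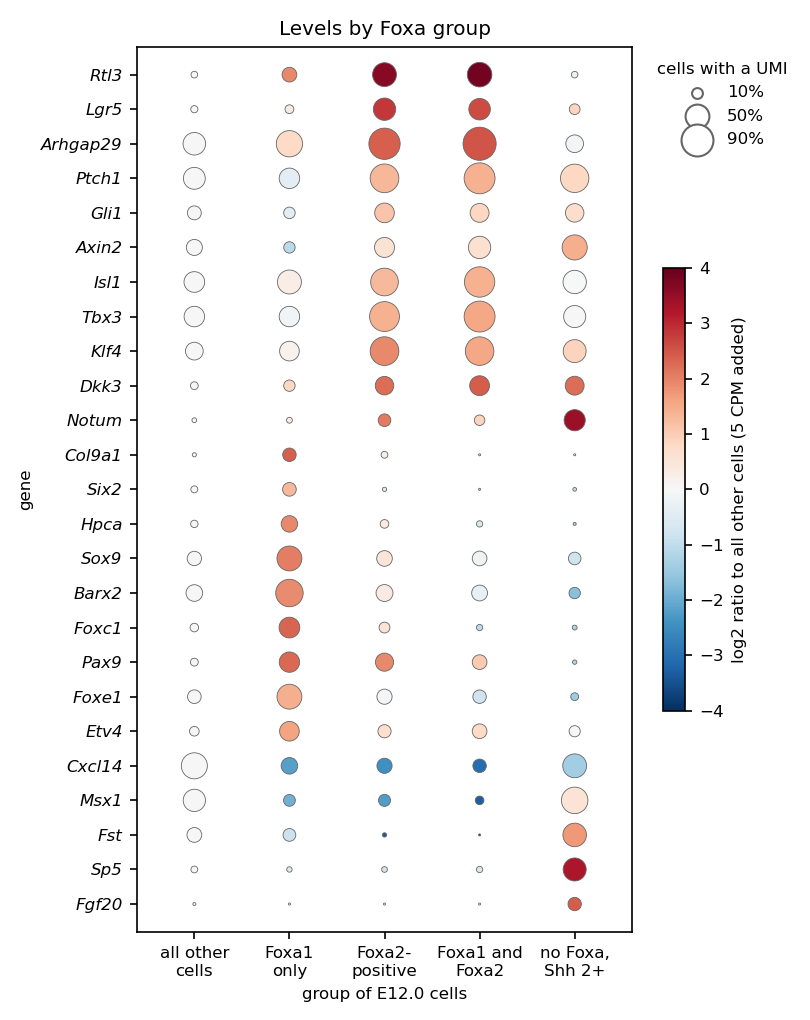
Log2 ratio of each gene's CPM, after adding 5 CPM, to that of the remaining cells (colour), and percent of cells with a UMI (dot size) in 5 groups of E12.0 cells. Ptch1, Lgr5 and Rtl3 are red in the columns with Foxa2, and Col9a1, Foxc1 and Sox9 in the column with Foxa1 only.

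Against the 10861 Foxa-negative cells, 397 genes were higher (4.88%) and 518 lower (6.37%) in the Foxa2-positive cells of 8133 tested, and 350 (4.3%) and 380 (4.67%) with an interval past 1. Rtl3 led with 143 against 6.82 CPM, a 21-fold difference (16.6 to 26.3). Amot was at 806 CPM (737 to 879) against 117 CPM, and Arhgap29, a GTPase-activating protein gene, at 643 CPM (582 to 709) against 119 CPM. Cells with Foxa1 only, set against the same Foxa-negative cells, had 227 higher (2.81%) and 176 lower genes (2.18%) of 8087, all with an interval past 1. Axin2 was lower in them, at 17.9 CPM (13.7 to 23.0) against 43.1 CPM, and Rtl3 higher, at 39.9 CPM. These comparisons share the Foxa-negative cells with the first one. A few transcription factor genes with hardly any UMIs in Foxa-negative cells were found here, and they are named after their values were seen. The forkhead gene Foxd1 had 12 UMIs in the 80 Foxa2-positive cells and 9 in the 10861 Foxa-negative cells, a 155-fold difference in CPM (60.1 to 417), and the bHLH-PAS gene Sim2 had 13 and 68, or 22.3-fold (11.3 to 40.7). Tbx2 had 8 and 17 UMIs and missed the criterion, with a UMI in 8.75% of the Foxa2-positive cells. Fst, an inhibitor of activin that marks dental cells, had 1 UMI in the Foxa2-positive cells and was at 62.2 CPM in the Foxa-negative ones. For taste placode genes the numbers with an interval past 1 were 10 higher and 1 lower of 21, and 6 of the 21 reached 10% of cells in the Foxa2-positive cells only.

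In the 32 cells with UMIs of both genes, the 7 salivary gland markers summed to 167 CPM, against 745 CPM in cells with Foxa1 only and 167 CPM in Foxa-negative cells. Rtl3 was at 167 CPM and Ptch1 at 319 CPM in them. Col9a1 had 0 UMIs, and Foxc1 1 UMI, while Sox9 was at 40.8 CPM and Barx2 at 66.8 CPM, both under the 47.1 and 84.8 CPM of the Foxa-negative cells. The higher level of these genes in all Foxa-positive cells was thus not found in the cells with both.

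Foxa-positive and Foxa-negative cells were also compared within a cluster, where most of these genes had been used to build the clusters. In the salivary gland-like cluster, Barx2 was at 565 CPM (522 to 610) in Foxa-positive and 589 CPM (557 to 622) in Foxa-negative cells, with overlapping intervals, while Pax9 was at 89.8 CPM (73.3 to 109) and 60.0 CPM (50.2 to 71.1), with intervals that do not overlap. In the posterior-lateral-like cluster, Pax9 was at 119 CPM (91.1 to 152) and 142 CPM (126 to 160), and Barx2 was lower in the Foxa-positive cells, at 460 CPM (403 to 522) against 567 CPM (535 to 601). In the Rtl3/Amot cluster, Lgr5 was at 74.1 CPM (58.4 to 92.8) in the 130 Foxa-positive and 34.2 CPM (24.2 to 46.9) in the 166 Foxa-negative cells, Ptch1 at 277 and 163 CPM, and Tbx3 at 242 and 121 CPM. Barx2 was lower in the Foxa-positive cells of this cluster, at 45.8 CPM (33.7 to 60.9) against 103 CPM (85.4 to 124). Amot was at 996 CPM (935 to 1059) in Foxa-positive and 951 CPM (894 to 1010) in Foxa-negative cells. Isl1 was at 267 CPM (236 to 301) and 224 CPM (197 to 254), and Pax9 at 42.9 CPM (31.2 to 57.6) and 41.4 CPM (30.3 to 55.2). For each of these genes the intervals overlap. Unlike in the comparison with all other cells, Krt8 was lower in the Foxa-positive cells, at 84.8 CPM (67.9 to 105) against 149 CPM (127 to 174). Col9a1 had 0 UMIs in either. The Foxa-positive cells of this cluster numbered 8 female and 87 male, in a cluster with 35 female and 178 male cells. The part that sex had in these differences was not tested.

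In the periderm-like cluster, the 31 Foxa-positive cells had Foxa1 only. Examples of genes that differed from the 429 Foxa-negative cells follow, chosen after their values were seen. Barx2 was at 267 CPM (206 to 341) against 54.9 CPM (46.7 to 64.1), Foxe1, a forkhead gene of the foregut and oral epithelium, at 146 CPM (102 to 203) against 46.7 CPM (39.2 to 55.2), and Pax9, with 7 UMIs, at 29.2 CPM (11.7 to 60.2) against 3.78 CPM (1.89 to 6.76). Scrublet called 7 of the 31 cells doublets (22.6%), against 8.86% of the others, and the part of doublets in this difference was not tested. In the posterior-medial-like cluster, Pax9 was also higher in the 91 Foxa-positive cells, at 62.8 CPM (45.1 to 85.2) against 22.4 CPM (19.4 to 25.7).

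The second comparison was with the 234 cells that had at least 2 Shh UMIs and no Foxa UMI. Of these, 170 lay in the cluster led by Tgfb2 and Sp5, in which all 9 initiation knot markers were raised, so the comparator is mainly initiation knot-like. The initiation knot is the signalling centre of the early tooth bud. Bmp2, Gad1 and Fgf20 were lower in the Foxa-positive cells, and Pax9 and Foxc1 were higher. Of 8440 genes tested, 665 were higher (7.88%) and 703 lower (8.33%) in Foxa-positive cells. All 21 initiation knot genes that could be tested were lower, but 15 of them reached 10% of cells in the comparator only, so nothing is read from this count. Bmp2 was at 8.42 CPM (5.83 to 11.8) against 206 CPM, the glutamate decarboxylase gene Gad1 had 2 UMIs against 126, and Fgf20 had 0 UMIs against 49. With 3 counts in place of 0, Fgf20 was 35.5-fold lower in CPM. The cell cycle inhibitor gene Cdkn1a was at 35.2 against 408 CPM and the proliferation marker Mki67 at 622 CPM (598 to 647) against 330 CPM, and 11 of 26 cell cycle genes were higher and 3 lower. Of 16 WNT inhibitors, 12 were lower and 2 higher, and 6 reached the limit in the comparator only. Pax9 and Foxc1 had 3 and 5 UMIs in the comparator. Notum, 1 of the 4 tongue markers, was lower, at 10.2 CPM (7.28 to 13.8) against 89.8 CPM.

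The 24 Foxa-positive cells with at least 2 Shh UMIs were compared with the 442 that had none. Because they were few, each count is also given with the counting interval past 1. Of 8545 genes, 983 were higher (11.5%) and 1357 lower (15.9%), which fell to 416 (4.87%) and 405 (4.74%) with an interval past 1. Of 21 taste placode genes, 13 were higher and 3 lower by the latter measure, and of 13 Hedgehog genes 6 and 1, but 7 and 3 of them, respectively, reached 10% of cells only in the cells with Shh. Notum was at 135 CPM (90.1 to 193) against 1.11 CPM and Wif1, another WNT inhibitor, at 97.4 CPM (60.3 to 149) against 3.32 CPM. Of the 24 cells, the 5 in the Tgfb2/Sp5 cluster had Wif1 at 260 CPM (142 to 436). The 16 in the Rtl3/Amot cluster had Wif1 at 55.9 CPM (22.5 to 115). Initiation knot genes were higher in 12 of 14 cases and lower in 0, but 8 of the 14 reached 10% of cells only in the cells with Shh. Salivary gland genes were lower in 5 of 7 and higher in 0, and 4 of the 7 reached the limit only in the cells without Shh. The 2 groups were spread differently over the clusters, with 16 of the 24 and 91 of the 442 cells in the Rtl3/Amot cluster. In those 91 cells Notum and Wif1 were both at 4.01 CPM (0.828 to 11.7).

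Of these 24 cells, 13 had Foxa2 and 11 Foxa1 only. In the Rtl3/Amot cluster lay 16 of them and in the Tgfb2/Sp5 cluster 5. The 16 cells had Shh at 343 CPM (248 to 462), Notum at 136 CPM (79.0 to 217), Lgr5 at 144 CPM (85.2 to 227), Isl1 at 359 CPM (262 to 481) and Ptch1 at 375 CPM (276 to 499). They had 0 UMIs of the tooth signalling genes Dkk4, Fgf20, Sp5, Gad1, Wnt10a and Fst, which in each case allows up to 29.4 CPM, and these 6 were picked because they were at 0. Other genes of the initiation knot were found in the 16 cells, with Bmp2 at 55.9 CPM (22.5 to 115), Sp6 at 31.9 CPM (8.70 to 81.7) and Fam19a4 at 23.9 CPM (4.94 to 70.0), against 206, 183 and 129 CPM in the comparator. The comparator had these 6 genes at 58.6, 26.3, 127, 67.7, 99.4 and 218 CPM, respectively, and Lgr5 and Isl1 at 19.9 and 105 CPM. The depth of the 16 cells therefore could not separate their Fgf20 from that of the comparator. The 91 Foxa-positive cells of the same cluster without Shh had Isl1 at 233 CPM (200 to 270). Their Ptch1 was at 238 CPM (205 to 276), and both intervals overlap those of the 16 cells. Lgr5, at 44.2 CPM (30.4 to 62.0), had an interval that does not overlap. Dkk4, Fgf20 and Gad1 had 0 UMIs in the 91 cells, and Sp5, Fst and Wnt10a were at 4.01, 6.69 and 8.03 CPM. Low levels of the 6 genes were thus shared with cells of the cluster without Shh. The 5 cells of the Tgfb2/Sp5 cluster had Dkk4 at 149 CPM (64.1 to 293), Sp5 at 111 CPM (40.9 to 243) and Cdkn1a at 483 CPM (315 to 708), and 0 UMIs of Lgr5. All 5 had Foxa1 only. Another 11 cells of the Rtl3/Amot cluster had at least 2 Shh UMIs and no Foxa UMI, with Lgr5 at 192 CPM (108 to 317), Notum at 103 CPM (44.3 to 202) and, of the 6 tooth genes, 2 UMIs of Sp5, 1 of Fst and 0 of the other 4.

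All 24 Foxa-positive cells with at least 2 Shh UMIs were also set against the 234 comparator cells, since both were chosen for Shh. Of 8551 genes, 1097 were higher (12.8%) and 1451 lower (17%), or 387 (4.53%) and 438 (5.12%) with an interval past 1. Initiation knot genes were lower in 16 of 21 cases and higher in 0 by the latter measure, taste placode genes higher in 4 and lower in 8 of 23, and Hedgehog genes higher in 0 and lower in 3 of 13. Of the 21 initiation knot genes, 8 reached 10% of cells in the comparator only, and of the 23 taste placode genes 3 did so in each group. Rtl3 was at 121 CPM (78.8 to 177) against 5.37 CPM, Amot at 826 CPM (709 to 956) against 110 CPM, and Tbx3 at 241 CPM (180 to 316) against 97.8 CPM. Notum was at 135 CPM (90.1 to 193) against 89.8 CPM (76.7 to 104), with intervals that overlap.

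**Figure D4:**
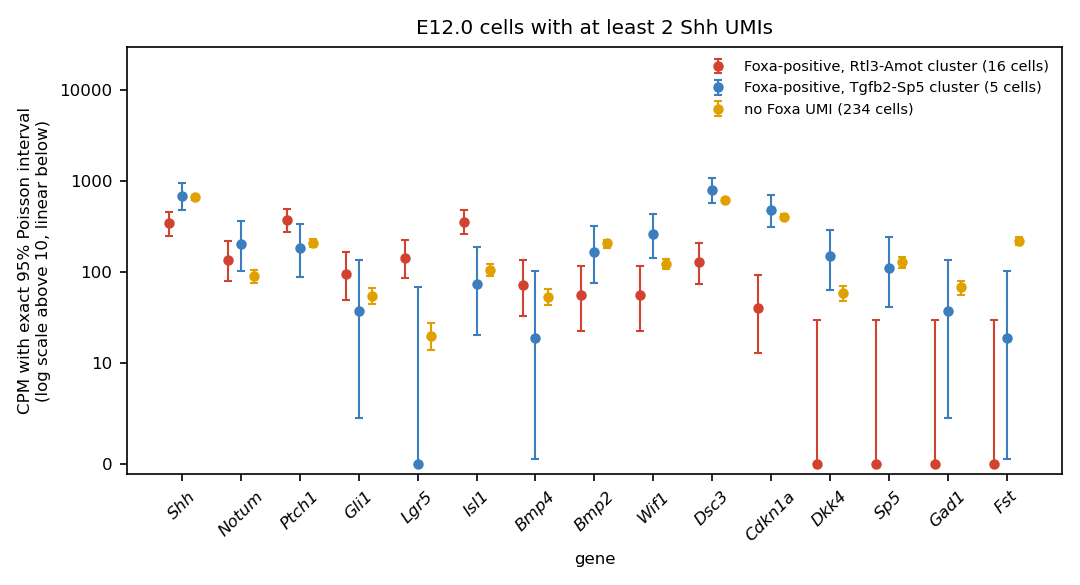
Levels (CPM, log axis above 10 and linear below, points with exact 95% Poisson intervals) of Shh, Hedgehog, WNT and initiation knot genes in the 16 Foxa-positive cells of the Rtl3/Amot cluster with at least 2 Shh UMIs, the 5 of the Tgfb2/Sp5 cluster and the 234 Foxa-negative cells. The 16 cells have Lgr5 and Isl1 above the comparator, no Dkk4, Sp5 or Gad1, and both Bmp2 and Wif1 at 55.9 CPM, against 206 and 124 CPM in the comparator.

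The cells came from 6 embryos that the labels do not tell apart, but sex-linked transcripts divide them. Among kept cells, 3645 had Xist and no Y-linked UMI and 4865 a Y-linked and no Xist UMI, so 57.2% (56.1 to 58.2) of these were male. Cells with Foxa1 only numbered 140 female and 185 male (56.9%, 51.3 to 62.4). Foxa2-positive cells numbered 9 female and 53 male (85.5%, 74.2 to 93.1), and cells with both genes 1 and 23 (95.8%). Of the clusters, the Rtl3/Amot cluster was 83.6% male, and the other 13 lay between 45.1% and 70.0%. Foxa-positive cells with 1 Shh UMI numbered 1 female and 21 male, and those with at least 2 numbered 3 and 17, while the comparator was 56.8% male (49.2 to 64.2). Sex and embryo cannot be told apart here.

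**Figure D5:**
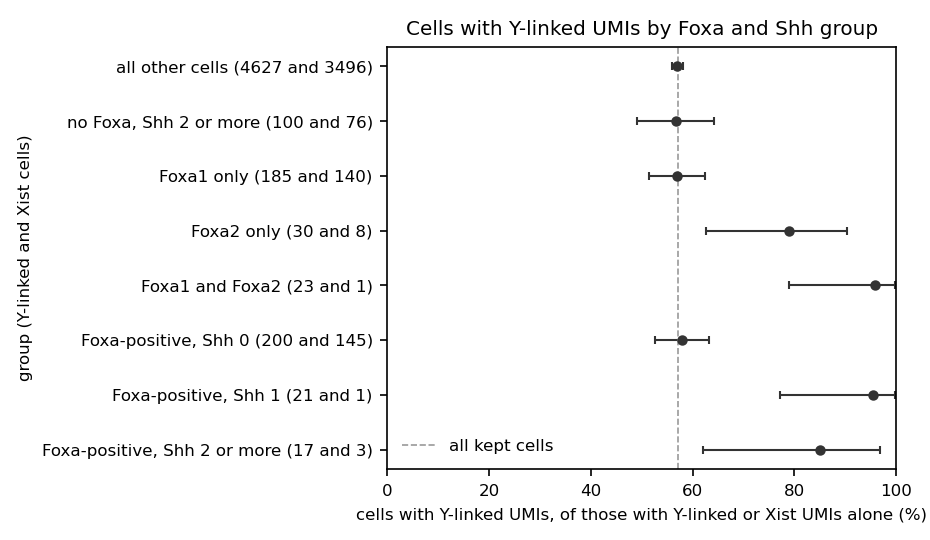
Percent of cells with Y-linked UMIs among cells with either Y-linked or Xist UMIs in 8 groups of E12.0 cells, with exact 95% binomial intervals as lines and all kept cells as the dashed line at 57.2%. Cells with Foxa2 only are at 78.9% and cells with both genes at 95.8%, while cells with Foxa1 only are at 56.9%.

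In the main comparison no gene was counted in opposite directions in female and male cells. Most genes counted as higher in female cells were not counted in male cells, so for them a shared direction was not shown. The ratio of Ptch1 lay on opposite sides of 1 in the sexes. Of the genes higher in Foxa-positive than in other cells, 142 were counted in each sex, which is 44.9% of the 316 counted in female cells and 65.7% of the 216 counted in male cells, and 0 genes were higher in 1 sex and lower in the other. In the comparison with the 234 Foxa-negative Shh cells, 11 genes were higher in female and lower in male cells and 18 the reverse. With 9 female Foxa2-positive cells, these numbers were 103 and 79 against Foxa-negative cells and 174 and 116 against cells with Foxa1 only. Rtl3 was at 20.4 against 4.83 CPM in female cells and 72.2 against 7.92 CPM in male cells. Barx2 was at 425 CPM in female and 229 CPM in male Foxa-positive cells. Ptch1 was lower in female Foxa-positive cells than in other female cells, at 58.7 against 114 CPM, a ratio of 0.514 (0.399 to 0.653), and was at 143 against 116 CPM in male cells, a ratio of 1.24 (1.09 to 1.39). The 9 female Foxa2-positive cells had 0 UMIs of Shh and Notum, so what is said above of Hedgehog genes in Foxa2-positive cells rests on the male cells, where Shh was at 93.8 CPM. The difference between the sexes was not tested.

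At E9.5, Foxa-positive cells were found by the same rule among the 4816 kept cells with an Epcam UMI. There were 414 (8.60%). Foxa2 was found in 289 of them (69.8%) and Foxa1 in 151, while at E12.0 Foxa2 was found in 80 of 494 (16.2%) and Foxa1 in 446. The libraries differ in dissection, sorting, depth and Cell Ranger version, so the values stand side by side with no comparison between stages. Within the E9.5 library, Foxe1 was at 184 CPM (173 to 195) in Foxa-positive and 30.6 CPM (29.2 to 32.0) in other Epcam-positive cells, Pax1, a gene of the pharyngeal pouches, at 52.0 against 11.3 CPM, Pax9 at 30.5 against 4.44 CPM and Sox2, a progenitor factor gene, at 195 against 76.6 CPM. Shh was at 25.9 CPM (21.9 to 30.4) against 2.76 CPM and Ptch1 at 178 against 70.1 CPM. Krt8 was at 569 against 320 CPM.

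Genes described above in the E12.0 cells had mixed values in the E9.5 library. Rtl3 had 0 UMIs in the 414 cells, which allows up to 0.629 CPM, Notum was at 0.852 CPM (0.277 to 1.99) and Lgr5 at 4.09 CPM (2.62 to 6.09) against 1.97 CPM. Amot was at 531 CPM (512 to 550) in Foxa-positive and 208 CPM in other Epcam-positive cells, and Arhgap29 at 61.0 against 76.2 CPM. Sox9 was lower with Foxa, at 29.3 CPM (25.1 to 34.0) against 48.2 CPM.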

How the data were processed

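Single cell 3' libraries (10x V3) of pooled mandibular tissue at E9.5 and E12.0 were analysed from the counts that the authors deposited, which are whole UMI counts per gene and barcode with no normalization. The submitters' processing notes name Cell Ranger 2.0.0 and the matrix headers 3.1.0 (E12.0) and 6.1.2 (E9.5), with GRCm38 (mm10). Cells with 200 to 5500 genes and at most 10% mitochondrial UMIs were kept, 11355 of 11663 barcodes at E12.0 and 12744 of 14293 at E9.5, with medians of 6349 and 13460.5 UMIs, and 51 barcodes occurred in both libraries. Foxa-positive cells had at least 1 UMI of Foxa1 and Foxa2 together.

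UMIs were summed over the cells of a group and scaled to CPM. Poisson, binomial and conditional binomial intervals were exact (95%), and groups at 0 UMIs were set to a floor of 3 counts for a fold. Genes with a ratio of at least 1.5 after adding 5 CPM and a UMI in 10% of the higher group's cells were counted. Cells were clustered with Seurat 5.3.0 and sctransform 0.4.2 in R 4.3.3 (30 principal components, resolution 0.9) with cell cycle, sex and lincRNA scores regressed out, as in the study. Scrublet (scanpy 1.11.5) called 661 doublets at E12.0, which were kept. Thinning to 4100 UMIs used a fixed seed. The sums and intervals came from scipy 1.17.1 and numpy 2.4.6 (Python 3.11.15), and the comparison was tested on simulated data.

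Named genes were those of 29 gene lists (371 genes), the 30 highest and 15 lowest of the first comparison, the 15 highest and lowest of the second and of the division by Shh, and genes leading a cluster. Genes of the Foxa2-positive cells named outside these were chosen after their values were seen. The members and lists were chosen with earlier results of these data known, and the divisions by Foxa2 and by cluster after seeing the data. Alternatives for the cell limits, doublets, the Foxa rule, depth, cell weights, sex, size criterion and clustering are given at the end. Some genes are not reported here.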

Additional observations from a re-analysis of the deposited data

How the results depend on the processing

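Each count of genes was recomputed with 1 choice changed at a time, except that the study's cutoffs change both the ratio and the percent of cells, and groups of fewer than 10 cells gave no value. No paired analysis was possible because each stage was 1 library. Of 127 recomputed counts, shares and ratios, 76 stayed within 1.5 times the reported count or within the counting interval. For Foxa-positive against all other cells (210 higher, 170 lower), the counts were 316 and 269 in female cells, 779 and 994 when a UMI of each gene was required, and 82 and 64 at a ratio of 2. At least 2 Foxa UMIs gave 307 lower genes, and the study's cutoffs of a ratio of 1.3 and 15% of cells gave 256. Against the Foxa-negative cells with Shh (665 and 703), the counts were 1203 and 1109 in female cells, 1149 and 1483 with a UMI of each gene, and 204 and 338 at a ratio of 2, and the higher genes numbered 1095 at no more than 5% mitochondrial UMIs and 1072 at the study's cutoffs. For Foxa-positive cells with Shh against those without (983 and 1357), the counts were 2055 and 2276 with at least 2 Foxa UMIs, which left 10 cells in the smaller group, 328 and 603 at a ratio of 2, and 416 and 405 with the counting interval past 1, and 1535 genes were higher at the study's cutoffs.

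For Foxa2-positive cells against those with Foxa1 only (387 and 649), the counts were 1269 and 1651 at no more than 5% mitochondrial UMIs, where 19 Foxa2-positive cells remained, 828 and 1320 with at least 2 Foxa UMIs, 816 and 989 after thinning, 581 and 1032 in male cells (579 higher without sex-linked genes), 101 and 165 at a ratio of 2, and 741 and 1043 at the study's cutoffs. With the counting interval past 1, 408 were lower. Against Foxa-negative cells (397 and 518), the same settings gave 1258 and 1367, 656 and 827, 750 and 837, and, at a ratio of 2 and at the study's cutoffs, 111 and 149 and 770 and 788, while a UMI of each gene gave 779 and 994. The number of cells in a group differed between several of these settings, and the cause of each change was not tested.

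Among 76 log2 ratios of named genes, 539 of 715 recomputed values moved by less than the counting interval and 8 reversed, all 8 when a UMI of each of Foxa1 and Foxa2 was required (32 cells). With 5 CPM added, these log2 ratios to all other cells were -0.66 for Col9a1, -1.08 for Foxc1, -0.18 for Sox9, -0.32 for Barx2, -0.47 for Dhrs3, -1.13 for Rarb, -0.17 for Crabp2 and -0.069 for Krt19. The ratio of joint detection of Foxa1 and Foxa2 to the product of their shares, a value of the genes that chose the cells, was 0 in female cells, of which 3337 reached 4100 UMIs. The highest share of Foxa-positive cells in a cluster was 71.1% of 90 cells when no scores were regressed out, and 18.9% when 2 Foxa UMIs were required. Depth limits what can be said of the 24 Foxa-positive cells with Shh and of the 9 female Foxa2-positive cells, and with 1 library neither embryo nor litter variation was measured.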
